A study of Mus musculus with 12 samples.

Results

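The mitochondrial ribosomal protein genes were followed across 4 genotypes of mouse blood progenitor cells. They were taken as every row of the deposited gene table whose symbol begins with Mrpl or Mrps and a digit, leaving out symbols marked as pseudogenes with -ps. This gave 78 of 55450 genes, 49 with an Mrpl symbol and 29 with an Mrps symbol. The rule reads symbols only.

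Mitochondria translate the few messenger RNAs of their own genome, nearly all of which encode membrane subunits of the respiratory chain and ATP synthase, on a ribosome of their own. The RNA of that ribosome is transcribed inside the organelle, whereas all its proteins are encoded in the nucleus, made in the cytosol and imported. Some of these proteins have bacterial counterparts and others were acquired in the mitochondrial lineage. In blood formation, mitochondrial translation is best known for its role in erythroid maturation, which needs heme and respiration, and for the sensitivity of leukemic progenitors to antibiotics that inhibit it.

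The cells were of donor origin, were negative for lineage markers and positive for Kit, and had been sort-purified from recipient marrow after competitive transplantation, so the transplanted cells developed beside competitor cells in a host. Total RNA was sequenced after removal of ribosomal RNA. The 12 libraries carried 4 genotype labels, 3 libraries each: WT, Tet2 knockout (Tet2KO), Id1 knockout (Id1KO) and both together (dKO). Tet2 is a dioxygenase that oxidizes methylcytosine in DNA and is often mutated in clonal hematopoiesis. Id1 is a partner of basic helix-loop-helix factors that keeps them off DNA. The design sets each single knockout beside WT and the double knockout beside each single one. The nature of the 2 alleles and the strain, sex and age of the mice are not given in the sources used here. The titles of the 3 libraries of a genotype share 1 sample number, so they may be repeats of 1 pool of cells, and every p-value measures only the spread between these libraries.

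Library totals ran from 15706407 to 19959183 estimated counts. Levels are given as CPM, counts scaled to library size by TMM, and differences as log2 fold changes from edgeR's quasi-likelihood test over 14346 genes, called at a Benjamini-Hochberg adjusted p under 0.05. Neither targeted transcript was lower under its own knockout label: Tet2 stood at 99.3 ± 2.20 CPM (SD, n = 3) in WT and 130 ± 2.51 in Tet2KO. Id1 stood at 1.47 ± 0.268 CPM in WT and was higher under all 3 knockout labels, at 3.86 ± 0.421 (Tet2KO), 3.96 ± 0.342 (Id1KO) and 3.93 ± 0.501 CPM (dKO). The libraries labelled WT also stood apart in sex-linked transcripts. Xist, made from the inactive X chromosome of females, averaged 262 ± 9.99 CPM in WT. Under the knockout labels it averaged 10.8 ± 1.1 CPM (Tet2KO), 64.9 ± 4.3 CPM (Id1KO) and 16.7 ± 0.36 CPM (dKO). The Y-linked helicase gene Ddx3y averaged 48.9 ± 2.5 CPM in WT and 87.7 ± 3.4, 93.4 ± 4.5 and 82.1 ± 3.0 CPM under the same 3 labels. These transcripts were at different levels in WT and under each knockout label, and Xist also differed between Id1KO and the other 2 knockout labels. The levels follow the labels, so their part in the comparisons that include WT cannot be told apart from that of the labels. Their part in the comparisons between knockout labels was not tested. Gene totals do not show a deletion of part of a gene, so WT, Tet2KO, Id1KO and dKO below are the names on the libraries, and each direction rests on those names. Kit itself was present in all 12 libraries, at 314 to 377 CPM, and the lineage markers Cd3e, Cd8a, Ms4a1 and Ly6g did not exceed 0.19 CPM in any. Other genes of the same marker lists were present. In WT the lymphoid markers summed to 164 to 168 CPM and the neutrophil granule markers to 14073 to 14129 CPM.

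All 78 genes passed the filter on low counts. Their mean levels ran from 9.33 to 93.2 CPM with a median of 39.6, against 22.8 over all genes tested. They lie on 17 chromosomes. Their merged exons span 607 to 8631 bp with a median of 2394, against 3974 over the genes tested. Replicate libraries were close: the median coefficient of variation of a member within a genotype was 3.82%.

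Compared per length, the 78 genes spanned a range of 4.20 to 66.7 CPM per kb of exon. Mrpl18 (ENSMUSG00000057388.9, chr17:12911349-12916345, minus strand), counterpart of a bacterial protein that binds the small ribosomal RNA of the large subunit, stood first with 67.6 ± 4.30 CPM per kb in WT and 61.9 ± 2.30 in Tet2KO (SD, n = 3). Its exons share 141 bp with Tcp1, a gene on the opposite strand counted at 552 CPM, and the strand setting of the counting is not given. By the mean over all 12 libraries, Mrpl34, Mrpl2 and Mrpl54, all of the large subunit, followed, with 58.2 ± 3.06, 48.0 ± 1.79 and 48.0 ± 2.98 CPM per kb in WT, and the last 2 did not differ beyond their spread. In WT alone, Mrpl12 and Mrpl36 lay level with them, at 49.0 ± 4.39 and 48.6 ± 1.03. At the low end stood Mrpl23, a large subunit protein at the mouth of the exit tunnel, with 4.07 ± 0.397 CPM per kb in WT. Its low place is uncertain, since 30.3 CPM were counted on an identical pseudogene copy, Mrpl23-ps1, against 20.7 on Mrpl23. Mrps35 and Mrps10, both of the small subunit, were at 4.18 ± 0.398 and 4.37 ± 0.374 in WT, and these 3 overlapped in their spread. The level per kb depends on the annotated exon length, and Mrps35 and Mrps10 have long annotated exons of 8631 and 8079 bp. Of the 7, only Mrpl18 was called in Tet2KO against WT, at -0.13 ± 0.041 (SE) (edgeR, adjusted p = 0.0228), and it lost that call without WT replicate 2, Tet2KO replicate 2 or Tet2KO replicate 3 (adjusted p up to 0.207).

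**Figure D1:**
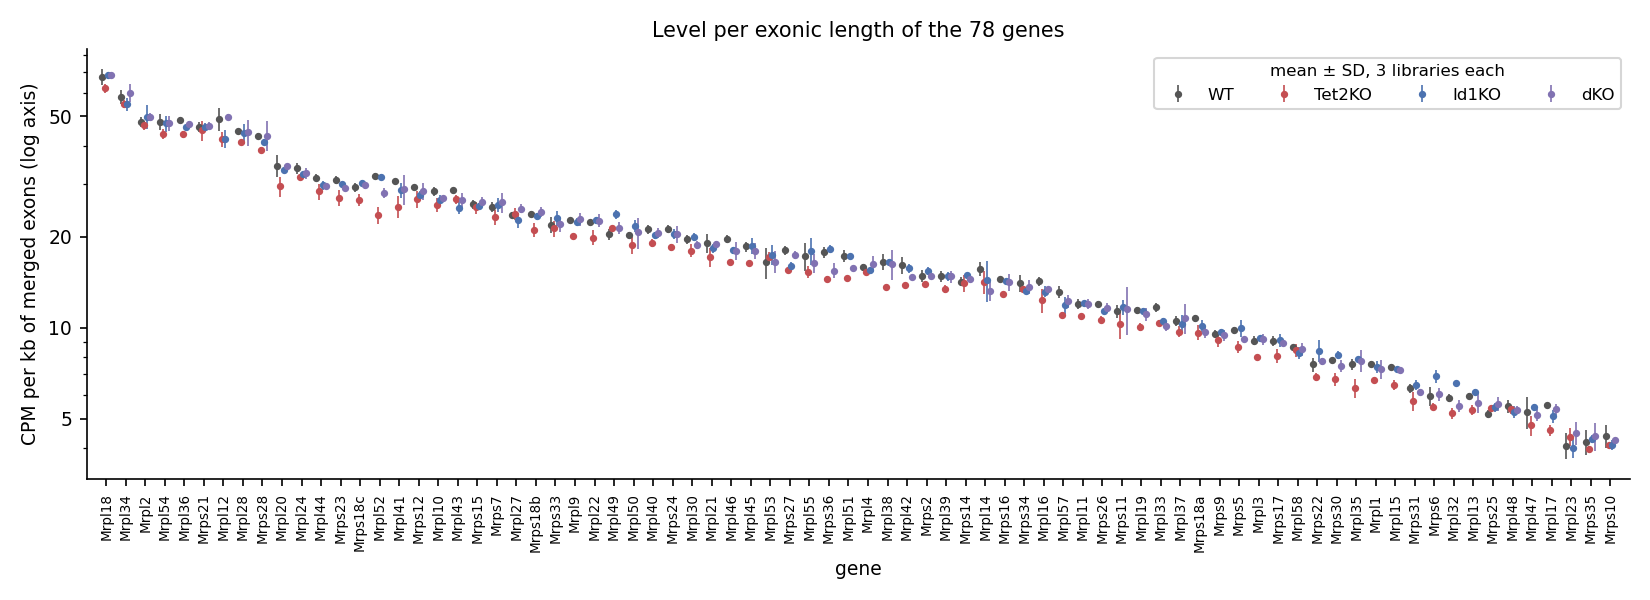
Level of each of the 78 genes in CPM per kb of merged exons (log axis), ordered by mean, with points for the mean and bars for the SD over 3 libraries of each genotype label. The order runs from Mrpl18 at 66.7 to Mrps10 at 4.20 CPM per kb on average, and the points labelled Tet2KO lie lowest of the 4 for 66 of the 78 genes.

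The promoters of the genes that carry the largest or the most unusual differences are shown with the motifs of factors known to act on nuclear genes for mitochondrial proteins. RefSeq promoter windows (GRCm38.p6), 250 bases before the start site and 50 from it on, were found by symbol for 69 of the 78 genes. Both strands were searched for the ETS motif CCGGAAG, bound by GABP among others, for GCGCANGCG, bound by NRF1, for AAGATGGCG, bound by YY1, and for the E-box CACGTG, bound by Myc among others. Below are the windows of Mrpl52, which differed most, of Mrpl12, Mrpl17 and Mrps27, which had the largest interactions between the labels, and of Mrpl32, which was higher in Id1KO. Each is written 5′ to 3′ on the strand of its gene, 250 bases before the start site and the first 25 from it on, with matches to the motifs on either strand in capitals.
Mrpl52: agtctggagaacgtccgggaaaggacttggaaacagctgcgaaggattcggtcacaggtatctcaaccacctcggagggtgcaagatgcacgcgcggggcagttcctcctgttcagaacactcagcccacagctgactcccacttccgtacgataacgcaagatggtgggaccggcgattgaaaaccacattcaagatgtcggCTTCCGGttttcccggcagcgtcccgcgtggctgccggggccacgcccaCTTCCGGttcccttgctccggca
Mrpl12: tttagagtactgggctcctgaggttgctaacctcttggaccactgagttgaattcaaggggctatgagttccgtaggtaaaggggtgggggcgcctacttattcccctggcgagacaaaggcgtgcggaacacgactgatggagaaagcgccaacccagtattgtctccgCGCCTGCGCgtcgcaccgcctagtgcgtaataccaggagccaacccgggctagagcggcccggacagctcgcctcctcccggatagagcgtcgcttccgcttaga
Mrpl17: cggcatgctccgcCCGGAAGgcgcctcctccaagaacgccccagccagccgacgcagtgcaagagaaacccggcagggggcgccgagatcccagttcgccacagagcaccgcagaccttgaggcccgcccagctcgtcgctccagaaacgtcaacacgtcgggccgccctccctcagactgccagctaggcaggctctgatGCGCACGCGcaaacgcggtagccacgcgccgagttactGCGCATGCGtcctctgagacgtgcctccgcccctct
Mrps27: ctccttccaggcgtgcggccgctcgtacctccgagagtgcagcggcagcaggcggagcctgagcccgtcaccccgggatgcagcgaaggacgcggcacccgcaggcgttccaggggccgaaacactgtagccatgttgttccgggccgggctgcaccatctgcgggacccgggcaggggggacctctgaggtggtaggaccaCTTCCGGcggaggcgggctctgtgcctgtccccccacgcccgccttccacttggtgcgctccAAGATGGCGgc
Mrpl32: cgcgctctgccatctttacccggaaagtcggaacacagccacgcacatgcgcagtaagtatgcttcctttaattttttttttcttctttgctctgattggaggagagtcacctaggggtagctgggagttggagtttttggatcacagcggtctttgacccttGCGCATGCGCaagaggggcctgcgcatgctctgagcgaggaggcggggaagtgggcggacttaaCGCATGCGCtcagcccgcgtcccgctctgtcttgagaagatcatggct
They lie at chr14:54426659-54426933 on the plus strand, chr11:120484387-120484661 on the plus strand, chr7:105811063-105811337 on the minus strand, chr13:99344536-99344810 on the plus strand and chr13:14613013-14613287 on the minus strand, in that order.

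In these windows Mrpl52 held the ETS motif at 2 sites, both on the opposite strand, beginning 47 bases before the start site and 2 bases after its first base. Mrpl12 held 1 NRF1 motif on the opposite strand, beginning 80 bases before the start. Mrpl17 held 2 NRF1 motifs and 1 ETS motif, Mrps27 an ETS motif on the opposite strand and a YY1 motif just after the start, and Mrpl32 an NRF1 palindrome that matches on both strands and a further NRF1 match. Over the family the ETS motif was in 26 of 69 genes (37.7%), against 20.8% of the 9878 tested genes with a window and 9.93% of all 27025 genes with one. NRF1 motifs were in 16 of 69 (23.2%), against 15.5% and 7.03%. YY1 motifs were in 8 of 69 (11.6%), against 3.68% and 1.64%. E-boxes were in 5 of 69 (7.25%), against 11.8% and 8.09%. At least 1 of the first 3 motifs was present in 42 genes, and 25 had none of the 4. Among members called lower in Tet2KO against WT, 13 of 39 held an NRF1 motif, and among those not called 3 of 30. The ETS motif stood in 16 of 39 and 10 of 30. These shares were not tested, and a match describes letters and not binding.

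Transcripts of the family were lower in the libraries labelled Tet2KO than in the other 3 genotypes, by a small and widely shared amount. The summed level of the 78 genes was 3292, 3348 and 3318 CPM in the WT libraries and 3045, 2991 and 2973 in Tet2KO. It was 3245, 3285 and 3285 in Id1KO and 3245, 3214 and 3285 in dKO. All 3 Tet2KO sums lay below all 9 others. Against the WT mean of 3319 ± 28.2 CPM (SD, n = 3), Tet2KO stood at 3003 ± 37.3, Id1KO at 3272 ± 23.4 and dKO at 3248 ± 35.3, differences of -9.54%, -1.44% and -2.15%. In bulk RNA, fewer cells of a type and less RNA per cell cannot be told apart.

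**Figure D2:**
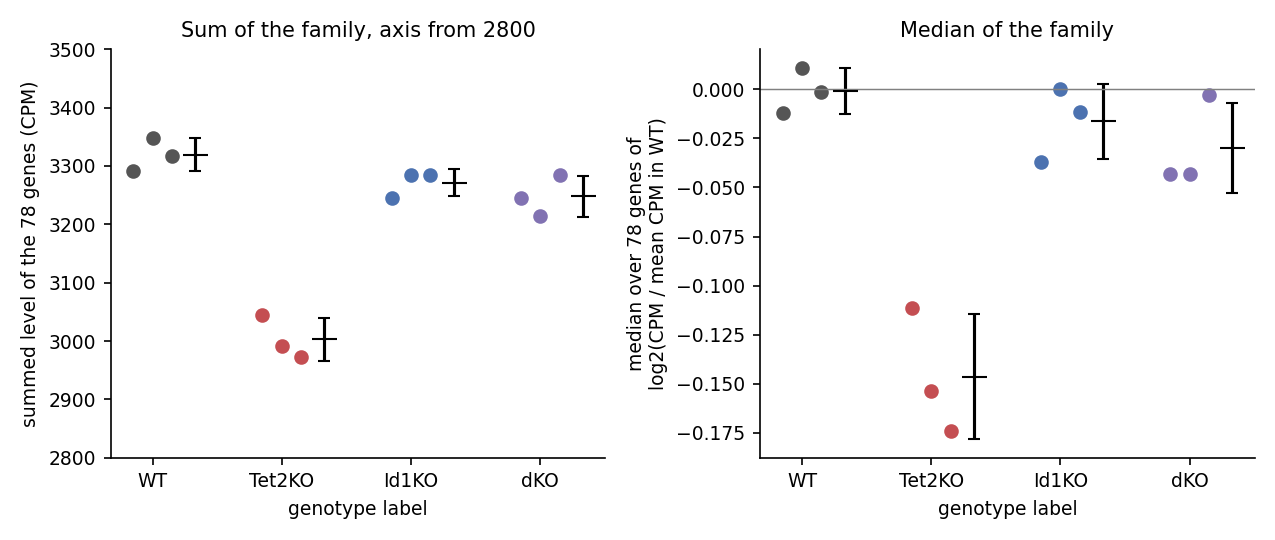
Left, summed level of the 78 genes in CPM in each library, on an axis that does not start at 0; right, the median over the 78 genes of the log2 ratio of CPM to the WT mean. Points are libraries, and lines with bars give the mean and SD of 3 libraries; the 3 libraries labelled Tet2KO lie between 2973 and 3045 CPM and the other 9 between 3214 and 3348.

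Of the 78 genes, 43 were lower and 0 higher in Tet2KO against WT by edgeR's adjusted p, where 16.2% of all 14346 genes tested were lower and 16.6% higher. At an unadjusted p under 0.05 the count was 52, with no share over all genes taken at this cutoff. The median log2 fold change was -0.15 over the family and -0.0028 over all genes tested. The estimate lay below 0 for 73 genes, and the 43 called falls ran from -0.12 to -0.44. For 50 genes all Tet2KO libraries lay below all WT libraries, where 23.1% of the genes tested did so. For 1, Mrps25, named after its values were seen, they lay above, where 22.9% did so. Of its 6576 bp of exon, Mrps25 shares 4590 bp with Nr2c2 on the opposite strand. Of the 78, 66 had their lowest mean in Tet2KO, 7 in Id1KO, 3 in WT and 2 in dKO. None had its highest mean in Tet2KO, and for 28 all 3 Tet2KO libraries lay below all 9 other libraries. These counts across the genotypes were made for the members alone, so no share over all genes stands beside them. Leaving out any 1 library gave 29 to 43 lower members. Tested against a fold of at least 1.2 with glmTreat, 1 member was called. The libraries of each genotype were also summed and fitted with 1 additive effect per label, which leaves 1 residual degree of freedom. That fit gives the Tet2 label 1 effect on both backgrounds, so it is not the contrast of Tet2KO with WT alone. Its median over the members was -0.073.

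**Figure D3:**
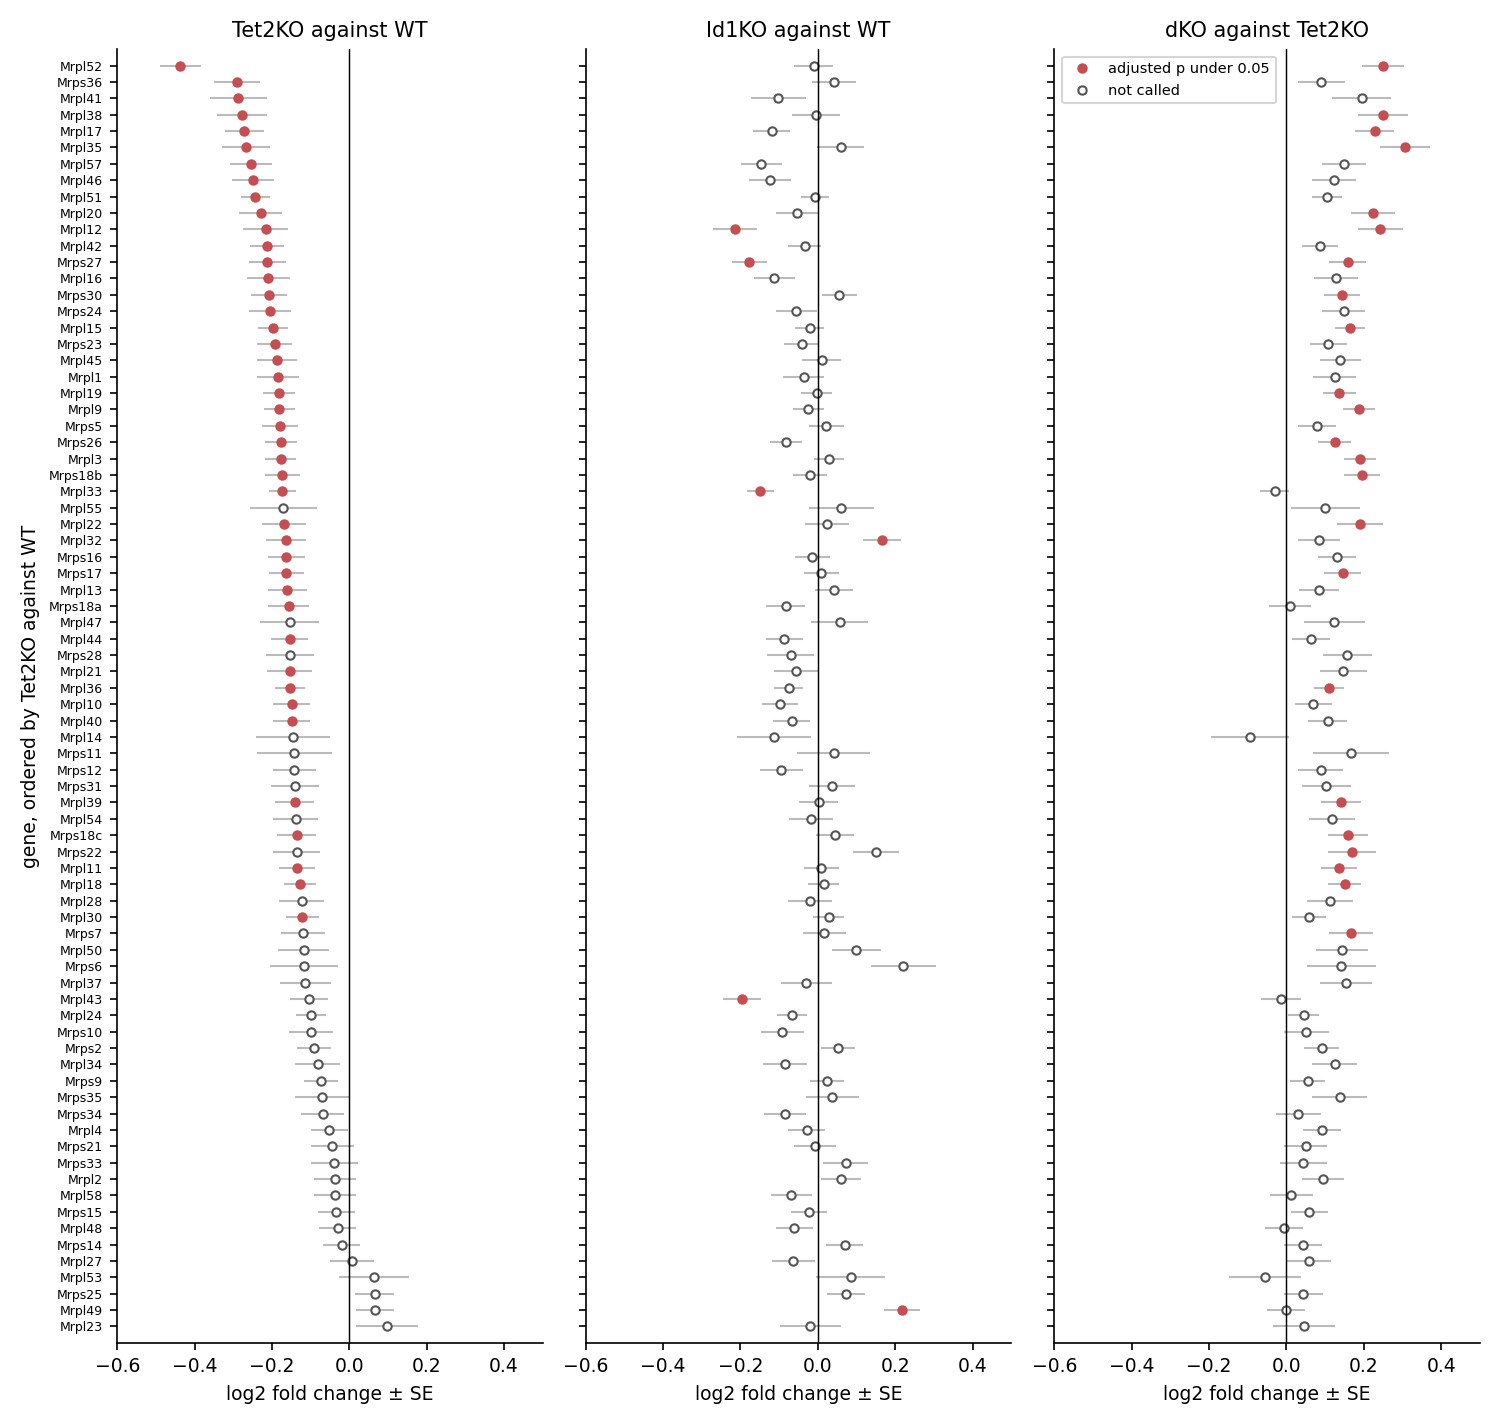
Log2 fold change with its SE for each of the 78 genes in Tet2KO against WT, Id1KO against WT and dKO against Tet2KO, all 3 panels ordered by the first; filled points have an edgeR adjusted p under 0.05. The first panel holds 43 filled points, all below 0, the second 6, and the third 23, all above 0; the first and the third panel share the Tet2KO libraries, and the first and the second the WT libraries.

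Mrpl52 fell most. It encodes a protein of the large subunit that has no bacterial counterpart (ENSMUSG00000010406.12, chr14:54426909-54429756, plus strand, 3 merged exons). Its level was 34.9, 36.2 and 34.7 CPM in the libraries labelled WT, 28.0, 24.8 and 25.5 in Tet2KO, 34.8, 34.3 and 35.9 in Id1KO and 30.3, 30.4 and 32.3 in dKO. The 4 genotypes fell into 3 tiers, with WT and Id1KO high, dKO between and Tet2KO low, and the tiers did not overlap. Its log2 fold change in Tet2KO against WT was -0.44 ± 0.053 (SE), a fall of 26.1% (edgeR, adjusted p = 2.54e-06). It was the 1 member called against a fold of at least 1.2.

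Mrps36 was next (ENSMUSG00000061474.11, chr13:100735955-100744659, minus strand). It was first described with the small subunit, but its product is now known as a component of the oxoglutarate dehydrogenase complex of the citric acid cycle. Its level was 23.4, 21.6 and 22.8 CPM in the libraries labelled WT, 18.0, 18.9 and 18.5 in Tet2KO, 23.6, 22.6 and 23.7 in Id1KO and 20.3, 20.4 and 18.4 in dKO. Both labels that include the Tet2 knockout were low and did not overlap with WT or Id1KO. Its difference on the log2 scale was -0.29 ± 0.059 (SE) in Tet2KO against WT and -0.24 ± 0.059 (SE) in dKO against Id1KO, for which edgeR gave adjusted p = 7.65e-04 and 0.00603. Mrps36 has 6 processed pseudogenes in the annotation, all near-identical except Mrps36-ps3, which was listed by its symbol only. Together they held 0.036 CPM on average.

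Mrpl41 (ENSMUSG00000036850.4, chr2:24974117-24975098, minus strand), a large subunit protein particular to mitochondria, stood at 26.7, 27.5 and 27.3 CPM in the libraries labelled WT, 23.6, 23.3 and 20.1 in Tet2KO, 24.6, 24.5 and 27.0 in Id1KO and 22.8, 25.1 and 28.5 in dKO. The Tet2KO libraries lay below the WT ones, and the dKO libraries spread from within the Tet2KO range to above the highest WT library. The fall in Tet2KO against WT was -0.29 ± 0.073 (SE) (edgeR, adjusted p = 0.00498), and without Tet2KO replicate 3 the adjusted p was 0.0510.

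Mrpl51 (ENSMUSG00000030335.6, chr6:125191801-125196269, plus strand), another large subunit protein particular to mitochondria, stood at 67.0, 69.6 and 73.3 CPM in the libraries labelled WT, 58.7, 58.7 and 59.8 in Tet2KO, 69.3, 69.3 and 70.2 in Id1KO and 63.5, 64.6 and 62.5 in dKO. As for Mrpl52, the order was Tet2KO, then dKO, then WT and Id1KO together, with no overlap between the 3 tiers. Tet2KO differed from WT by -0.24 ± 0.037 (SE) (edgeR, adjusted p = 4.45e-05).

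Falls were called in both subunits and among old and recent proteins, with a larger share called in the large subunit classes. Of all genes tested, 16.2% were lower in Tet2KO against WT. Among large subunit proteins with a bacterial counterpart, 20 of 30 were called lower in Tet2KO against WT, with a median of -0.16. Among large subunit proteins particular to mitochondria, to which Mrps30 and Mrps18a belong in spite of their names, 13 of 21 were lower, with a median of -0.15. In the small subunit 5 of 16 with a bacterial counterpart and 4 of 10 particular to mitochondria were lower, with medians of -0.13 and -0.14. The difference between the classes was not tested. All 5 mitoribosome proteins without an Mrp symbol had estimates below 0, and 4 of the 5 were called lower. Ptcd3, a pentatricopeptide repeat protein of the small subunit, at -0.26 ± 0.037 (SE), and Dap3, its GTP-binding protein, at -0.22 ± 0.040 (SE), fell most, and edgeR gave adjusted p = 1.98e-05 and 3.11e-04.

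The 3 paralogs of the bacterial protein S18 sit at different places of the mitochondrial ribosome, where bacteria have 1 protein. Mrps18c, the direct counterpart in the small subunit, stood at 31.4 ± 1.13 CPM in WT and 28.5 ± 1.34 in Tet2KO (SD, n = 3), a difference of -0.14 ± 0.051 (SE) (edgeR, adjusted p = 0.0453). Mrps18b, also of the small subunit, stood at 49.6 ± 1.14 and 44.0 ± 2.22 CPM, a change of -0.17 ± 0.046 (SE) (edgeR, adjusted p = 0.00646). Mrps18a, which sits in the large subunit, stood at 39.6 ± 1.10 and 35.5 ± 2.07 CPM, a change of -0.16 ± 0.053 (SE) (edgeR, adjusted p = 0.0271). All 3 were lower in Tet2KO. In dKO against Tet2KO the values were 0.16, 0.20 and 0.01, and only the first 2 were called, for which edgeR gave adjusted p = 0.0283 and 0.00386. The call of Mrps18c in dKO against Tet2KO was lost without Tet2KO replicate 1 or 2 or dKO replicate 2 or 3 (adjusted p up to 0.134). Its call in Tet2KO against WT was lost without any of 10 of the 12 libraries, all but WT replicate 3 and Id1KO replicate 2, with adjusted p up to 0.195. That of Mrps18a was lost without WT replicate 1 or 3 or Tet2KO replicate 2 or 3, with adjusted p up to 0.167. Mrps12, the small subunit protein at the decoding centre, was not called at -0.14 ± 0.057 (SE) (edgeR, adjusted p = 0.0610).

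The comparison of dKO with Tet2KO asks whether the Id1 label alters the levels on the Tet2KO background. It shares the Tet2KO libraries with the comparison above, so low values there enter both, and its numbers stand beside those and are not independent of them. In dKO against Tet2KO 23 members were higher and 0 lower, where 13.1% of the genes tested were higher and 13.4% lower. At an unadjusted p under 0.05 the count was 39, with no share over all genes taken at this cutoff. The median log2 fold change was 0.12, against -9.5e-05 over all genes tested, and 72 of 78 estimates lay above 0. For 37 members all dKO libraries lay above all Tet2KO libraries, where 19.7% of the genes tested did so, and for 0 below, where 20.2% did so. The count fell to 15 without Tet2KO replicate 2, to 12 without Tet2KO replicate 3 and to 11 with DESeq2.

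Mrpl35 (ENSMUSG00000052962.3, chr6:71812997-71826969, minus strand), a large subunit protein with a bacterial counterpart, led this comparison. It stood at 32.2, 32.3 and 30.0 CPM in the libraries labelled WT, 28.4, 25.1 and 25.2 in Tet2KO, 33.2, 32.2 and 33.2 in Id1KO and 29.9, 35.3 and 32.0 in dKO. The Tet2KO libraries were the lowest of the 12, and the dKO libraries spread from just under the lowest WT library to above all others. On the log2 scale it changed by 0.31 ± 0.064 (SE) in dKO against Tet2KO and -0.27 ± 0.063 (SE) in Tet2KO against WT, for which edgeR gave adjusted p = 0.00125 and 0.00264.

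Mrpl38 (ENSMUSG00000020775.13, chr11:116131817-116138868, minus strand), a large subunit protein particular to mitochondria, stood at 44.3, 42.8 and 39.3 CPM in the libraries labelled WT, 34.6, 34.5 and 35.2 in Tet2KO, 41.4, 43.1 and 41.5 in Id1KO and 46.7, 37.3 and 40.3 in dKO. Its Tet2KO libraries lay close together and below all others, while the first dKO library was the highest of the 12. The log2 fold change in dKO against Tet2KO was 0.25 ± 0.065 (SE) (edgeR, adjusted p = 0.00760), and without dKO replicate 1 it was 0.16 with an adjusted p of 0.0636. Mrpl52 rose by 0.25 ± 0.055 (SE) in the same comparison (edgeR, adjusted p = 0.00201), but stayed below WT.

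The Id1KO label alone went with few differences. In Id1KO against WT 2 members were higher and 4 lower, where 7.26% and 7.77% of the genes tested were, so 6 of 78 lay below the background. The median was -0.018, against -0.0078 over all genes tested. The 2 higher members were Mrpl32 and Mrpl49, and the 4 lower Mrpl12, Mrpl43, Mrps27 and Mrpl33. The count of higher members was 1 without WT replicate 2 or 3 or any 1 of the Id1KO libraries, and that of lower members was 2 without WT replicate 1, Id1KO replicate 1 or Id1KO replicate 2.

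Mrpl49 (ENSMUSG00000007338.10, chr19:6053622-6057785, minus strand), a large subunit protein particular to mitochondria, stood at 37.2, 40.2 and 37.5 CPM in the libraries labelled WT, 39.7, 40.9 and 39.7 in Tet2KO, 43.8, 43.6 and 46.2 in Id1KO and 39.0, 42.2 and 38.9 in dKO. The Id1KO libraries lay above all 9 others, which overlapped. Its log2 fold change was 0.22 ± 0.047 (SE) in Id1KO against WT (edgeR, adjusted p = 0.00357), and 0.07 ± 0.048 (SE) in Tet2KO against WT, with an adjusted p of 0.323.

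Mrpl32 (ENSMUSG00000015672.4, chr13:14608184-14613165, minus strand), whose product is cut by the inner membrane m-AAA protease before it joins the large subunit, stood at 30.0, 28.3 and 29.1 CPM in the libraries labelled WT, 27.1, 26.0 and 24.9 in Tet2KO, 32.8, 32.4 and 32.7 in Id1KO and 26.1, 28.6 and 27.9 in dKO. Here too the Id1KO libraries were the highest of the 12. The log2 difference was 0.17 ± 0.049 (SE) in Id1KO against WT, -0.16 ± 0.052 (SE) in Tet2KO against WT and -0.25 ± 0.051 (SE) in dKO against Id1KO, for which edgeR gave adjusted p = 0.0278, 0.0192 and 0.00173. The first was lost without WT replicate 2 or 3 or any 1 of the Id1KO libraries (adjusted p up to 0.0947). The second was lost without WT replicate 1 or 3 or Tet2KO replicate 2 or 3 (up to 0.114), and the third kept its call without any 1 library.

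Mrpl43 (ENSMUSG00000025208.9, chr19:45004829-45006442, minus strand), whose exons overlap 507 bp of the mitochondrial helicase gene Twnk on the opposite strand, stood at 44.0, 42.9 and 43.7 CPM in the libraries labelled WT, 42.0, 40.4 and 39.2 in Tet2KO, 36.0, 39.1 and 38.7 in Id1KO and 41.6, 37.5 and 41.3 in dKO. All 3 Id1KO libraries lay below all 3 WT libraries. The log2 fold change was -0.20 ± 0.049 (SE) in Id1KO against WT (edgeR, adjusted p = 0.00936), and 0.0685 was the adjusted p without Id1KO replicate 1.

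Mrpl33 (ENSMUSG00000106918.3, chr5:31596935-31664384, plus strand), a large subunit protein with a bacterial counterpart, was low under all 3 knockout labels. It stood at 83.3, 88.7 and 85.0 CPM in the libraries labelled WT, 77.8, 75.2 and 75.1 in Tet2KO, 76.0, 76.9 and 78.9 in Id1KO and 74.1, 77.3 and 71.8 in dKO. None of the 9 knockout libraries reached the lowest WT library. The log2 fold changes against WT were -0.17 ± 0.036 (SE) in Tet2KO, -0.15 ± 0.035 (SE) in Id1KO and -0.20 ± 0.036 (SE) in dKO, for which edgeR gave adjusted p = 9.23e-04, 0.00697 and 4.15e-04. These 3 comparisons share the WT libraries, and the second lost its call without WT replicate 2 (adjusted p 0.0516).

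In dKO against WT 0 members were higher and 5 lower, where 10.2% and 8.97% of the genes tested were. The median was -0.029, against -0.0031 over all genes tested. The 5 were Mrpl33, Mrps36, Mrpl52, Mrpl51 and Mrpl42, the last named after its values were seen. Mrps36 differed by -0.20 ± 0.059 (SE), Mrpl52 by -0.19 ± 0.052 (SE) and Mrpl51 by -0.14 ± 0.037 (SE), for which edgeR gave adjusted p = 0.0214, 0.0140 and 0.0116. The call of Mrps36 was lost without WT replicate 1 or 3 or dKO replicate 3 (adjusted p up to 0.133), that of Mrpl52 without WT replicate 2 or dKO replicate 1 or 2 (up to 0.0647), and that of Mrpl51 without WT replicate 3 or dKO replicate 3 (up to 0.0941). DESeq2 called 1 member. The count was 3 without WT replicate 2 or 3 or dKO replicate 1 or 2.

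In dKO against Id1KO, the Tet2 label on the Id1KO background, 1 member was higher and 5 were lower, where 10.6% and 8.7% of the genes tested were. The median was -0.0026, against -0.0017 over all genes tested. Mrpl12 was the higher member, and Mrpl32, Mrps36, Mrpl52, Mrpl49 and Mrpl51 the lower ones. Mrpl52 differed by -0.18 ± 0.052 (SE) and Mrpl51 by -0.13 ± 0.037 (SE), for which edgeR gave adjusted p = 0.0203 and 0.0165. The call of Mrpl52 was lost without Id1KO replicate 3 or dKO replicate 1 or 2 (adjusted p up to 0.0704), and that of Mrpl51 without dKO replicate 3 (0.0687). That of Mrpl49 was lost without Id1KO replicate 1 or 3 or dKO replicate 1 or 3 (up to 0.124). The count of lower members was 3 without dKO replicate 1 or dKO replicate 3, and 2 with DESeq2. Mrps36, Mrpl52, Mrpl32 and Mrpl51 were called lower here and in Tet2KO against WT.

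The difference between the effect of the Tet2 label with and without the Id1 label was tested as an interaction. The interaction uses all 12 libraries, so low values in Tet2KO raise it, and it is not independent of the comparisons above. It was positive for 13 members, for which the Tet2 label went with a less negative or a positive difference on the Id1KO background, and negative for 1, where 7.46% and 7.03% of the genes tested were. At an unadjusted p under 0.05 the count was 35, with no share over all genes taken at this cutoff. The median interaction was 0.13 over the family, against 0.0087 over all genes tested, and 71 of 78 estimates lay above 0. The count of positive members was 5 without WT replicate 2 or dKO replicate 3, 6 without Tet2KO replicate 2 or Id1KO replicate 1, and 7 without Tet2KO replicate 3. DESeq2 also gave 5.

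Mrpl12 (ENSMUSG00000039640.7, chr11:120484613-120489065, plus strand), which forms the flexible stalk of the large subunit and also binds the mitochondrial RNA polymerase Polrmt, had the largest interaction. Its level was 82.1, 68.7 and 74.3 CPM in the libraries labelled WT, 60.3, 67.0 and 66.4 in Tet2KO, 62.4, 61.9 and 69.9 in Id1KO and 77.9, 77.0 and 74.4 in dKO. All Tet2KO libraries lay below all WT libraries, the highest Id1KO library lay above the lowest WT library, and the dKO libraries lay within the range of WT. The interaction was 0.46 ± 0.082 (SE) on the log2 scale (edgeR, adjusted p = 7.43e-04). Its difference on the log2 scale was -0.22 ± 0.058 (SE) in Tet2KO and -0.21 ± 0.057 (SE) in Id1KO against WT and 0.24 ± 0.058 (SE) in dKO against Id1KO, for which edgeR gave adjusted p = 0.00655, 0.0144 and 0.00546. WT replicate 1 was the highest library, and without it the first was -0.14 with an adjusted p of 0.0593 and the second -0.14 with 0.106. The second was also lost without Id1KO replicate 1 or 2. Polrmt itself was not called in Tet2KO against WT, at -0.12 ± 0.069 (SE) (edgeR, adjusted p = 0.214).

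Mrps27 (ENSMUSG00000041632.7, chr13:99344786-99415562, plus strand), a small subunit protein with pentatricopeptide repeats, stood at 39.1, 37.5 and 36.6 CPM in the libraries labelled WT, 32.7, 32.7 and 32.4 in Tet2KO, 34.8, 32.6 and 32.8 in Id1KO and 36.1, 35.4 and 37.6 in dKO. Both single labels lay below all WT libraries, and dKO overlapped WT. The interaction was 0.34 ± 0.067 (SE) (edgeR, adjusted p = 0.00196). In Id1KO against WT the log2 fold change was -0.18 ± 0.046 (SE) (edgeR, adjusted p = 0.0128), and that call was lost without WT replicate 1, Id1KO replicate 2 or Id1KO replicate 3 (adjusted p up to 0.0675).

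Mrpl17 (ENSMUSG00000030879.10, chr7:105803206-105811099, minus strand), a large subunit protein with a bacterial counterpart, stood at 42.9, 41.6 and 41.7 CPM in the libraries labelled WT, 34.1, 36.6 and 34.0 in Tet2KO, 41.0, 37.8 and 37.5 in Id1KO and 39.7, 39.9 and 42.8 in dKO. Here Tet2KO was the lowest, Id1KO lay between and dKO near WT. The interaction was 0.35 ± 0.070 (SE) and the change in Tet2KO against WT -0.27 ± 0.050 (SE), for which edgeR gave adjusted p = 0.00227 and 2.93e-04. The 1 negative interaction was that of Mrpl49, at -0.22 ± 0.068 (SE) (edgeR, adjusted p = 0.0366), and it was lost without any of 8 of the 12 libraries (adjusted p up to 0.0841), all but WT replicate 2, Id1KO replicates 1 and 2 and dKO replicate 2.

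**Figure D4:**
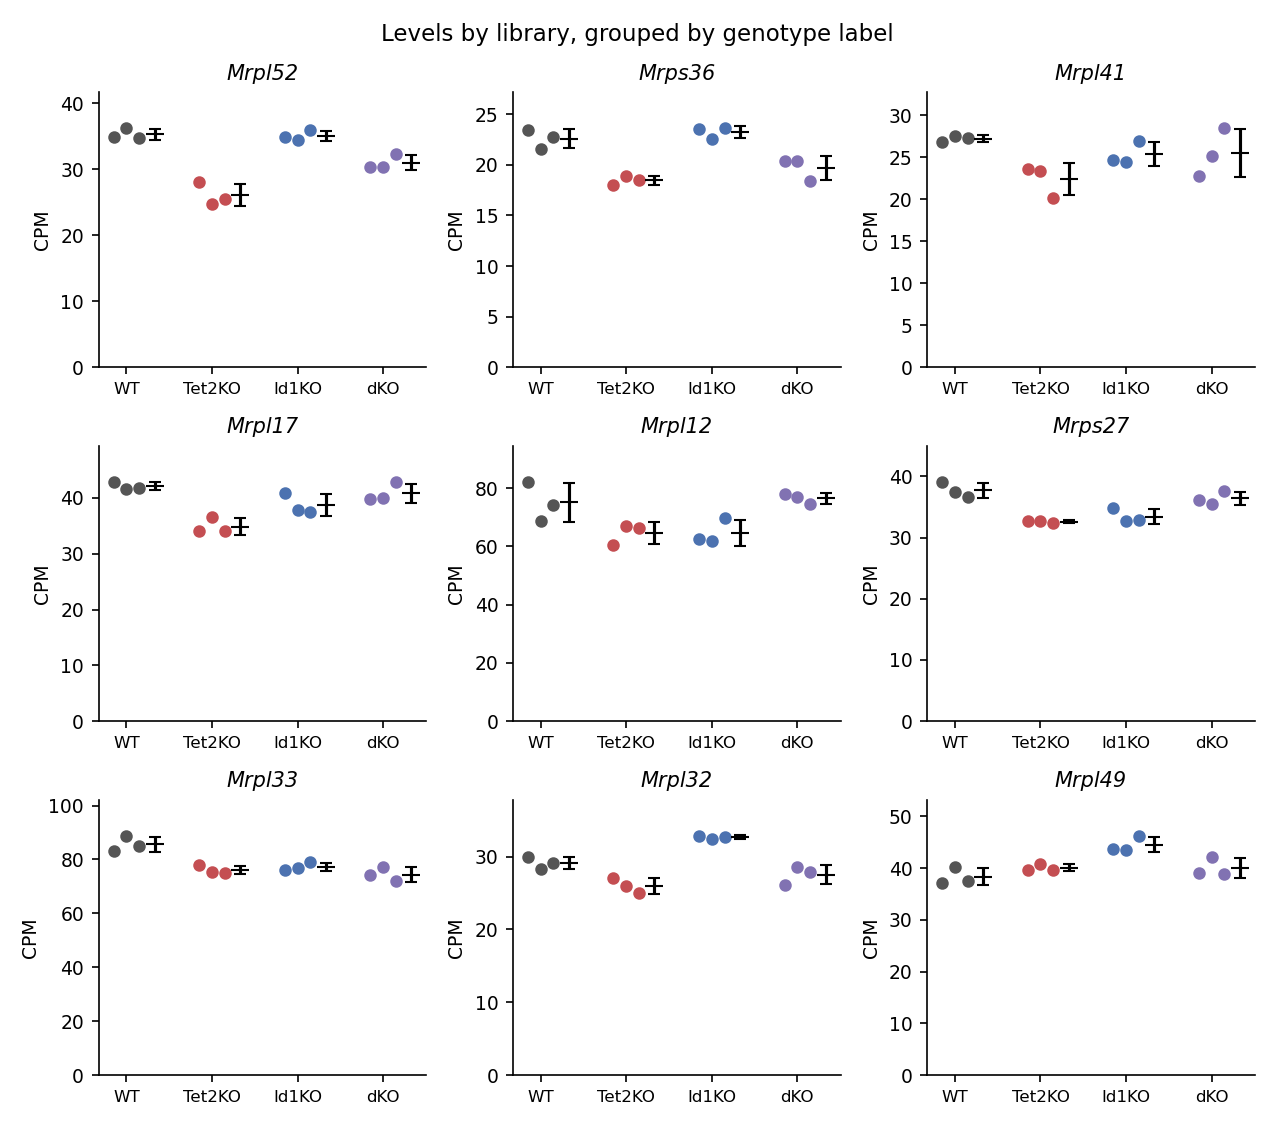
Level in CPM, on axes that start at 0, of 9 members in each of the 12 libraries, with points for libraries and lines with bars for the mean and SD of 3 libraries. Mrpl52 and Mrpl17 are lowest in Tet2KO, Mrps36 is low in Tet2KO and dKO, Mrpl12 and Mrps27 are low in Tet2KO and Id1KO, Mrpl33 is low under all 3 knockout labels, and Mrpl49 and Mrpl32 are highest in Id1KO.

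The genes that serve the mitochondrial ribosome were read from lists chosen by their known function. For comparison, 16.2% of all genes tested were lower and 16.6% higher in Tet2KO against WT. In dKO against Tet2KO 13.1% of all genes tested were higher and 13.4% lower. Of 13 translation factors tested, 5 were lower and 0 higher in Tet2KO against WT, and 5 were higher and 0 lower in dKO against Tet2KO. The elongation factor gene Gfm1 was at -0.23 ± 0.041 (SE) and 0.24 ± 0.041 (SE), for which edgeR gave adjusted p = 2.22e-04 and 2.16e-04. Of 27 assembly factors and ribosomal RNA modifiers, 7 were lower and 5 higher in the same comparisons, 0 the other way. Fastkd2, which stabilizes the large subunit RNA, was at -0.38 ± 0.062 (SE) in Tet2KO against WT, and the GTPase Mtg2, which acts late in large subunit assembly, at -0.33 ± 0.066 (SE), for which edgeR gave adjusted p = 7.90e-05 and 7.56e-04. Of 23 genes of mitochondrial transcription and RNA handling, 10 were lower and 7 higher. The helicase of the RNA degradosome Supv3l1 was at -0.34 ± 0.046 (SE) and 0.32 ± 0.047 (SE), for which edgeR gave adjusted p = 9.59e-06 and 4.43e-05. The elongation factor of mitochondrial transcription, Tefm, was at -0.33 ± 0.094 (SE) in Tet2KO against WT (edgeR, adjusted p = 0.0112). Of 20 genes for charging mitochondrial transfer RNA, 6 were lower and 8 higher. None of these lists held a gene called the other way in either comparison. The medians in Tet2KO against WT were -0.10, -0.13, -0.14 and -0.10 in the order given.

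The 2 mitochondrial ribosomal RNAs were not called in any of the 5 comparisons between genotypes, and ribosomal RNA was depleted before sequencing. The sum of mt-Rnr1 and mt-Rnr2 was 13613 CPM in WT replicate 1 and between 7176 and 9423 CPM in the other 11 libraries. Of 9 factors known to act on nuclear mitochondrial genes, 1 was higher and 1 lower in Tet2KO against WT. Of all genes tested, 16.6% were higher and 16.2% lower there. Myc was at -0.10 ± 0.034 (SE) in that comparison and 0.14 ± 0.034 (SE) in dKO against Tet2KO, for which edgeR gave adjusted p = 0.0211 and 0.00383. Yy1 was at 0.10 ± 0.035 (SE) in Tet2KO against WT (edgeR, adjusted p = 0.0410). Nrf1 was not called there, at 0.11 ± 0.043 (SE) (edgeR, adjusted p = 0.0524), and neither was Gabpa (edgeR, adjusted p = 0.940).

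For the proteins of the cytosolic ribosome, dKO and not Tet2KO was the lowest genotype. Of 89 cytosolic ribosomal protein genes tested, 37 were lower and 1 higher in Tet2KO against WT, with a median of -0.070. In dKO against WT 61 were lower and 1 higher, with a median of -0.11, and in dKO against Tet2KO 18 were lower and 1 higher, with a median of -0.046. Of all genes tested, 16.2% were lower and 16.6% higher in the first comparison. The shares were 8.97% and 10.2% in the second and 13.4% and 13.1% in the third. The mitochondrial family had medians of -0.15, -0.029 and 0.12 in these comparisons. Summed levels of the cytosolic genes ran from 82313 to 83767 CPM in Tet2KO and from 78705 to 81720 in dKO, both below the 85295 to 88242 of WT. The difference between the lists was not tested.

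**Figure D5:**
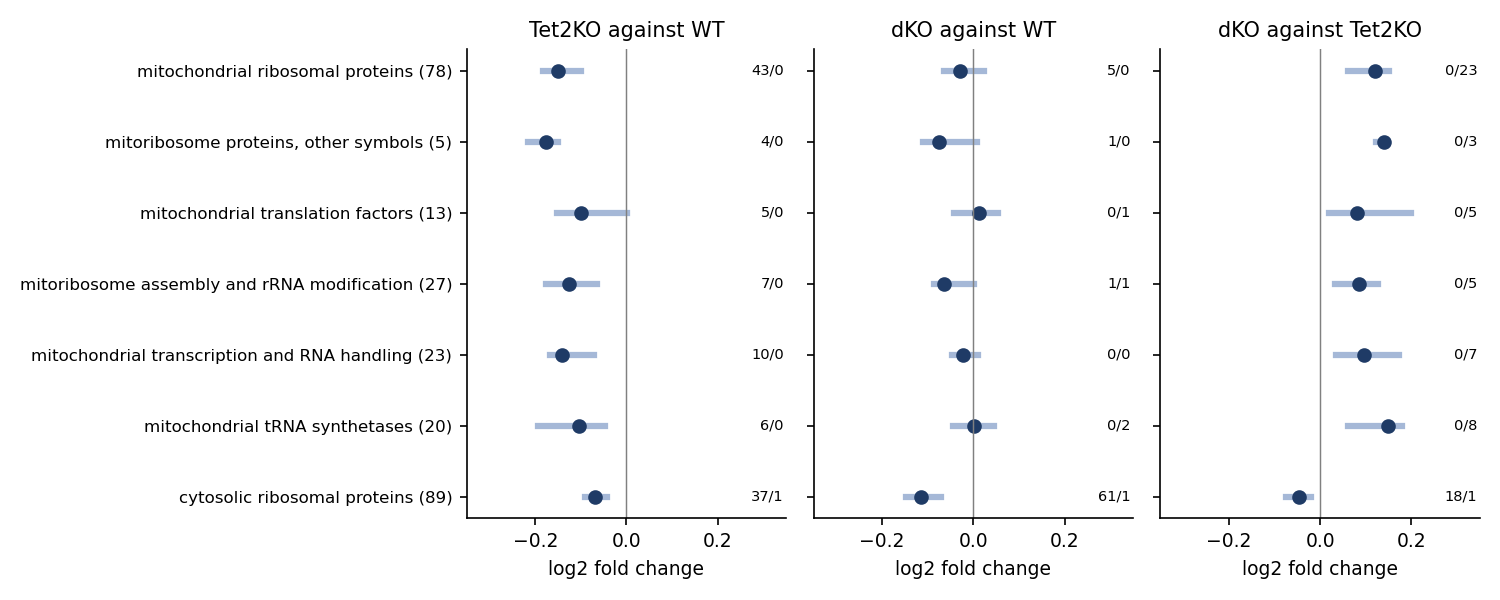
Median log2 fold change (points) and interquartile range (bars) of 7 gene lists in Tet2KO against WT, dKO against WT and dKO against Tet2KO, with the number of genes tested in brackets and, at the right of each panel, the numbers called lower and higher by edgeR. The mitochondrial lists lie below 0 in the first panel and above 0 in the third, and the cytosolic ribosomal proteins lie below 0 in all 3.

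Markers of erythroid cells were lowest in the same libraries as the family. Of 15 tested, 14 were lower in Tet2KO against WT, with a median of -0.84, and 14 were higher in dKO against Tet2KO, with a median of 0.99. Of all genes tested, 16.2% were lower in the first comparison and 13.1% higher in the second. The summed erythroid level ran from 1645 to 1692 CPM in WT, 984 to 992 in Tet2KO, 1829 to 1866 in Id1KO and 1653 to 1672 in dKO. The alpha globin gene Hba-a1 stood at 4.90 to 15.5 CPM. In Id1KO against WT 2 of the 15 markers were higher and 0 lower, with a median of 0.02, where 7.26% and 7.77% of all genes tested were. In dKO against WT 6 were higher and 1 lower, with a median of 0.065, where 10.2% and 8.97% of all genes were. In dKO against Id1KO 5 were higher and 4 lower, where 10.6% and 8.7% of all genes were.

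The summed markers of other cell types were as high or higher in Tet2KO than in WT. Beside the counts below, 16.6% of all genes tested were higher and 16.2% lower in Tet2KO against WT. In dKO against Tet2KO 13.1% were higher and 13.4% lower. Neutrophil granule markers summed to 15543 to 15784 CPM in Tet2KO against 14073 to 14129 in WT, 11823 to 12800 in Id1KO and 11637 to 12828 in dKO, with Ly6g near 0. Of 9 tested, 5 were higher and 2 lower in Tet2KO against WT. Monocyte and dendritic markers summed to 1958 to 2010 CPM in Tet2KO and 1733 to 1790 in WT, with 3 of 6 tested higher and 1 lower. The 5 Kit progenitor markers summed to 950 to 969 CPM in Tet2KO, 872 to 885 in WT, 799 to 807 in Id1KO and 798 to 811 in dKO, and 4 of 5 were higher and 1 lower in Tet2KO against WT. Mast cell markers summed to 164 to 167 CPM in Tet2KO and 151 to 158 in WT, with 3 of 6 tested higher and 1 lower. Megakaryocyte markers summed to 163 to 173 CPM in Tet2KO and 158 to 164 in WT, with 2 of 7 tested higher and 0 lower. Lymphoid markers summed to 181 to 184 CPM in Tet2KO and 164 to 168 in WT, and 4 of 6 tested were higher and 0 lower, with a median of 0.48, while Cd3e, Cd8a and Ms4a1 were near 0. Proliferation genes summed to 5693 to 5721 CPM in Tet2KO, 5709 to 5840 in WT and 6034 to 6055 in dKO. Of 19, 6 were lower and 1 higher in Tet2KO against WT, and 12 were higher and 0 lower in dKO against Tet2KO. The part of these cell types and of proliferation in the family's result was not tested.

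Shared reads touch some members. Of the 78 members, 33 share no exon with another gene and have no near-identical pseudogene copy elsewhere. Among those 33, 16 were lower and 0 higher in Tet2KO against WT, where 16.2% and 16.6% of all genes tested were. Their median there was -0.14. In dKO against Tet2KO 10 were higher and 0 lower, where 13.1% and 13.4% of all genes tested were. Mrpl23 and its pseudogene Mrpl23-ps1 are identical over 540 bp. The log2 fold change of Mrpl23 in Tet2KO against WT was 0.10 and that of their sum -0.04, so its direction is uncertain. The value of Mrpl53 went from 0.06 to -0.06 when summed with Gm42688, which overlaps it on the same strand, and that of Mrps24 from -0.21 to -0.09 when summed with Urgcp. Mrps6, the least abundant member at 9.33 CPM, went from -0.12 to 0.07 when summed with its same-strand neighbours Slc5a3 and Gm49711. These 3 were named after their values were seen. Mrpl46 and Mrps11 lie head to head and share 173 bp of exon on opposite strands. Among the members described above, Mrpl33 shares 261 bp with Gm43809, Mrps18c 250 bp with Gm43511 and Mrpl51 87 bp with Mir3098 on their own strand. On the opposite strand Mrpl12 shares 200 bp with Gm16755, Mrps27 506 bp with 6430562O15Rik and Mrps18b 638 bp with Gm16279. Also on that strand, Mrpl49 shares 91 bp with Syvn1 (counted at 36.7 CPM) and Mrpl18 141 bp with the chaperonin gene Tcp1 (552 CPM). In Tet2KO against WT the log2 fold change of Mrpl18 was -0.13 and that of its sum with Tcp1 -0.17. Whether the counting used strand is not given in the sources used here.

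Differences over all genes in Tet2KO against WT varied with exonic length, while the medians of the family lay close together in all length classes. In 5 classes of about equal size, from the shortest to the longest genes tested, the median log2 fold change ran from -0.04 to 0.06. The medians of the members in the same classes were -0.15, -0.14, -0.17, -0.16 and -0.16, over 32, 20, 10, 9 and 7 members. Across the 78 genes, Spearman's rho of the log2 fold change with exonic length was -0.069 and with mean CPM -0.11, as a description over genes that share libraries.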

How the data were processed

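Total RNA from sorted donor Lin- Kit+ marrow cells was sequenced in 12 libraries, 3 for each of 4 genotype labels. The authors deposited a table of estimated counts per gene for 55450 genes, made with STAR and RSEM on mm10, per the submitters' processing notes; versions and the strand setting are not given in the sources used here. Library totals ran from 15706407 to 19959183. The values were rounded to whole numbers (8.25% of genes had a value that was not whole). Genes were filtered with filterByExpr at a minimum count of 10, which left 14346, all 78 members among them, and were scaled by TMM. edgeR's quasi-likelihood test was fitted over all 12 libraries with 1 mean per genotype, and p-values were adjusted over all 14346 genes by Benjamini-Hochberg at a threshold of 0.05. The method was tested on simulated counts of independent libraries, which cannot show whether the libraries of a genotype are repeats of 1 pool.

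The members and gene lists were chosen with earlier results of these data known. Genes named were the members called with the largest changes in each comparison (with a mean of at least 5 CPM), those called in the same direction in Tet2KO against WT and dKO against Id1KO, those with the most and fewest counts per kb, and Mrps18a, Mrps18b, Mrps18c, Mrpl12 and Mrps12 for their known roles. Positions and exons are from GENCODE M21 (GRCm38), to which all 55450 identifiers matched, and promoter sequences from RefSeq (GRCm38.p6). Near-identical copies were pseudogenes found by BLAST with a minimum identity of 95%, a minimum alignment of 200 bp and a minimum coverage of 60% of the copy, limits set after seeing the data. Mrps36-ps3 was added by its symbol. Libraries of 1 genotype differed by more than sampling noise in all 12 pairs, with chi-square per degree of freedom of 1.52 to 5.35, against 9.17 to 24.0 in the 54 pairs between genotypes. The biological coefficient of variation was 0.0305, and p-values measure only the spread between these libraries. Alternatives were other scalings and filters, DESeq2, a replicate block, a minimum fold of 1.2, each library left out, and the libraries of a genotype summed. Software was edgeR 4.0.16, DESeq2 1.42.0 and limma 3.58.1 in R 4.3.3, BLAST 2.17.0, and pandas 2.3.3, scipy 1.17.1 and matplotlib 3.10.9 in Python 3.11.15.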

Additional observations from a re-analysis of the deposited data

Results flagged for a closer look

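By edgeR's interaction test (Benjamini-Hochberg adjusted p under 0.05), the effect of the Tet2 label differed between the WT and Id1KO backgrounds for 14 of 78 members. Over all genes tested 14.5% were called, so the total for the members lay near that share. The interaction includes the Tet2KO libraries, so low values there raise it. By sign, 13 members were positive and 1 negative, where 7.46% and 7.03% of all genes tested were. The interaction, on the log2 scale, was 0.46 for Mrpl12, 0.35 for Mrpl17, 0.34 for Mrps27, 0.30 for Mrpl57 and 0.28 for Mrpl20. It was 0.26 for Mrpl52, 0.25 for Mrpl46, 0.24 for Mrpl16, 0.22 for Mrps18b, 0.21 for Mrpl9 and 0.21 for Mrps26. It was 0.19 for Mrpl36, 0.18 for Mrpl15 and -0.22 for Mrpl49. Those of Mrpl12, Mrpl17 and Mrps27 kept their call without any 1 library. That of Mrpl52 was lost without any of 6 libraries (WT replicate 2, Tet2KO replicates 2 and 3, Id1KO replicates 1 and 2, dKO replicate 3; adjusted p up to 0.0750). That of Mrps18b was lost without any of 7 (WT replicates 2 and 3, Tet2KO replicates 2 and 3, Id1KO replicate 1, dKO replicates 1 and 3; up to 0.0939).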

How the results depend on the processing

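The counts and medians of members stayed within 1.5 times or within the spread under upper-quartile and RLE scaling, with 132 mitochondrial and small RNA genes left out of the scaling, under a stricter filter, fits to only the libraries compared and, for the medians, use of only the 33 members without copies or shared exons. The replicate numbers did not pair the libraries: deviations of same-numbered libraries correlated at -0.10 to 0.11 over 18 pairs. With a replicate block, 41 members were called in Tet2KO against WT, 20 in dKO against Tet2KO and 13 in the interaction, where 43, 23 and 14 were called without it; the other 3 counts stayed at 6, 5 and 6, and no call of a named member was lost. At an adjusted p under 0.01 the members lower in Tet2KO against WT numbered 28. In Id1KO against WT 1 was higher and 2 lower, in dKO against WT 1 was lower, in dKO against Tet2KO 10 were higher, in dKO against Id1KO 2 were lower, and the interaction had 3 positive and 0 negative. Against a 1.2-fold change (glmTreat) 1 member was lower in Tet2KO against WT, and 0 were called in each of the other 4 comparisons and in the interaction. DESeq2 gave 1 higher in Id1KO against WT, 1 lower in dKO against WT, 11 higher in dKO against Tet2KO, 2 lower in dKO against Id1KO, and 5 positive and 0 negative interactions. With no filter 1 was higher in Id1KO against WT, and 0 interactions were negative. With the libraries of each genotype summed, and 1 additive effect per label, 0 members were called in any of the 5 comparisons, and the median was -0.073 for the Tet2 label (Tet2KO against WT, dKO against Id1KO) and 0.053 for the Id1 label (Id1KO against WT, dKO against Tet2KO). That fit gives each label 1 effect on both backgrounds, and in it Mrpl12 turned to 0.016 in Tet2KO against WT and 0.016 in Id1KO against WT, and Mrps27 to -0.0075 in dKO against Tet2KO. Leaving out 1 library at a time gave 29 to 43 lower in Tet2KO against WT, 1 to 2 higher and 2 to 4 lower in Id1KO against WT, 3 to 6 lower in dKO against WT, 12 to 24 higher in dKO against Tet2KO, 3 to 7 lower in dKO against Id1KO, and 5 to 15 positive and 0 to 1 negative interactions. Of 46 calls of named members, 22 kept their call without any 1 library and 24 lost it without at least 1; DESeq2 lost 16. Except where the construction of an alternative shows it, the cause was not tested. The counts of members under the alternatives stand without a share over all genes, and show only how those counts moved. Differences of about 10% could be called only because the libraries of a genotype lay close together.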
